A study of Mus musculus with 8 samples.

Results

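Cirbp (cold-inducible RNA-binding protein, ENSMUSG00000045193) and Rbm3 (RNA-binding motif protein 3, ENSMUSG00000031167) are the 2 mammalian genes best known for rising when a cell or a body cools. They were taken by symbol, 2 rows of the 21959 genes in the deposited table, without use of their values. Brain RNA was compared between 4 libraries of mice given isoliensinine (IsoL), an alkaloid studied here for its effect on sleep, and 4 libraries of the Model group, whose treatment label is PCPA (para-chlorophenylalanine, which blocks serotonin synthesis). All 8 libraries are labelled wild type and brain. The series' design text adds that the mice were female, of the ICR stock and dosed for 7 days, received sodium pentobarbital 40 minutes after the last dose, and that hypothalamus was dissected. IsoL was given there at 12.5, 25 or 50 mg/kg. The animals' age, which dose was sequenced, whether PCPA was also given to IsoL mice and whether animals were pooled or separate are not in the labels. The p-values therefore cover the spread between libraries alone, and that spread may be technical. Body temperatures were not analysed here.

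Both proteins carry a single RNA recognition motif followed by a glycine-rich tail. Cooling by a few degrees raises both mRNAs and proteins in mammalian cells, while warming lowers them, and heat shock factor drives the chaperone genes in the opposite temperature range. CIRBP binds target mRNAs and, in mouse cells, shapes the rhythm of clock transcripts such as Clock. RBM3 favours translation and, in cooled mouse brain, protects synapses through the reticulon Rtn3, downstream of the TrkB receptor gene Ntrk2. Body temperature falls during sleep in mammals.

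The start of Cirbp is shown because it holds a match to a sequence described as a cold response element. The RefSeq table of promoters (GRCm38.p6) matched 1 of the 2 genes, Cirbp, with 2 annotated start sites. The window of the upstream start site, chr10:80167589-80167888 on the + strand, runs from 250 bases before the start to 50 bases from the start on. Capitals mark matches, on either strand, to TCCCCGCC, described as the mild cold response element and bound by SP1, to the GC box GGGCGG, and to the CCAAT box.
Cirbp: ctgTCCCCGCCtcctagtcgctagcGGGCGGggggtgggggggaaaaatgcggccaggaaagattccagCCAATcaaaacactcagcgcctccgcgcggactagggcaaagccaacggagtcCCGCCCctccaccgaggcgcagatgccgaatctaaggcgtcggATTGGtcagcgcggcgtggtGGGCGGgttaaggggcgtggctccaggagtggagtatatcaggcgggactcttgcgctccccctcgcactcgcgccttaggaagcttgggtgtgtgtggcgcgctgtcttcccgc

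The window held 1 match to TCCCCGCC, at bases -247 to -240 from the start, 3 to GGGCGG and 2 to CCAAT, none of them overlapping. Over all 32851 promoter windows of the same length, 5.38% held TCCCCGCC, 35.7% GGGCGG and 37.4% CCAAT. The heat shock element pair GAANNTTC was in 7.86% of windows and in neither Cirbp window. It matched once in the window of each of the paired chaperone genes Hspa1a and Hspa1b, and their windows also held 1 TCCCCGCC match each. Neither window of the HSP70 co-chaperone gene Dnajb1 held the pair, and the downstream one held 1 TCCCCGCC match. The window of the downstream Cirbp start held 4 GGGCGG matches and no TCCCCGCC. A match describes letters only.

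Summed gene counts were 15731923 to 21620466 in the IsoL libraries and 14262836 to 15886850 in the Model libraries. Levels are given in CPM, each count divided by its library's total after TMM scaling (factors 0.983 to 1.01). A gene with 3 counts would lie at 0.139 to 0.210 CPM, and both genes lay far above that. In a joint fit of 14536 genes, 40 passed at an adjusted p of 0.05 (edgeR quasi-likelihood, Benjamini-Hochberg). IsoL 1 and IsoL 2 stood apart in markers of ependyma and choroid plexus, which summed to 686 and 589 CPM there, 83.2 and 32.7 CPM in IsoL 3 and 4, and 25.6 to 41.4 CPM in the Model libraries. Model 2 had the highest mitochondrial share of counts, 5.64%, against 4.69 to 5.11% in the other 7 libraries. Reads of Y-linked genes were present in all 8 libraries, against the stated sex: Ddx3y was at 156 ± 4.89 CPM in IsoL and 148 ± 5.70 CPM in Model libraries, and Eif2s3y at 65.2 ± 7.23 CPM in IsoL and 68.1 ± 3.18 CPM in Model libraries. The X-linked RNA Xist was not analysed here.

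Neither gene passed the test. Cirbp averaged 65.9 ± 4.0 CPM in IsoL libraries and 57.9 ± 4.46 CPM in Model libraries (SD, n = 4 each), a ratio of 1.14. Rbm3 averaged 54.7 ± 3.15 CPM in IsoL libraries and 53.9 ± 2.99 CPM in Model libraries, a ratio of 1.02. Of the 2 genes 0 were called, beside 0.275% of all tested genes, 0.117% called higher and 0.158% called lower in IsoL (edgeR). At an unadjusted edgeR p under 0.05 there was 1 of the 2, Cirbp, beside 13.2% of all tested genes.

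Cirbp lies on chromosome 10, 80001819 to 80008620 on the + strand as the table gives it, with no genome build stated in the sources used. The GRCm38.p6 start window printed above falls outside this span, so its coordinates and the table's are not comparable. Its read counts were 993, 1136, 1044 and 1544 in IsoL 1 to 4, against 877, 992, 790 and 784 in Model 1 to 4. Scaled for library size, these were 61.0, 65.9, 66.0 and 70.8 CPM in IsoL 1 to 4, against 61.3, 62.1, 54.96 and 53.2 CPM in Model 1 to 4. IsoL 2, 3 and 4 were above every Model library, while IsoL 1 was below Model 1 and Model 2, so the groups overlapped by 1 library. The fitted log2 fold change was 0.19 (SE 0.07, 95% interval 0.05 to 0.33, edgeR adjusted p = 0.244). As a fold this is 1.14, with an interval of 1.03 to 1.26. The log2 interval, which is not adjusted for the number of genes, leaves out 0, but 749 genes had a smaller p, which is 5.15% of those tested. The exact two-sided permutation test of logCPM over the 70 splits into 4 and 4 gave p = 0.0857 for this gene alone, where the smallest possible is 0.0286.

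The call for Cirbp depended on the tool. It passed in limma voom with quality weights (log2 0.25, SE 0.06, adjusted p = 0.0451), which called 0.764% of all tested genes higher in IsoL. It did not pass in DESeq2 (log2 0.19, adjusted p = 0.197), which called 1.11% higher. Voom gave Model 2, the Model library with the highest Cirbp level, the lowest weight of the 8, 0.296, and Model 4, the one with the lowest Cirbp level, the highest, 2.19. With each library left out in turn in edgeR, the log2 fold change stayed positive in 8 of 8 fits, at 0.15 to 0.23, and passed in 0 of them (adjusted p 0.102 to 0.447).

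Rbm3 lies on chromosome X, 8005214 to 8012119 on the - strand in the table's coordinates. Its read counts were 829, 967, 920 and 1169 in IsoL 1 to 4, against 790, 834, 824 and 746 in Model 1 to 4. In CPM these were 50.9, 56.1, 58.2 and 53.6 in IsoL 1 to 4, against 55.2, 52.2, 57.3 and 50.7 in Model 1 to 4. The 2 groups interleaved over their whole range, with the highest value in IsoL 3 and the lowest in Model 4. The log2 fold change was 0.02 (SE 0.06, 95% interval -0.11 to 0.15, edgeR adjusted p = 0.909), and 79.6% of tested genes had a smaller p. As a fold the interval ran from 0.927 to 1.11, so a rise of more than 1.11 times or a fall below 0.927 of the Model level lies outside it. The exact two-sided permutation p was 0.686. The sign of the estimate was not fixed: it was -0.00846 without IsoL 3 and -0.00308 without Model 4.

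**Figure D1:**
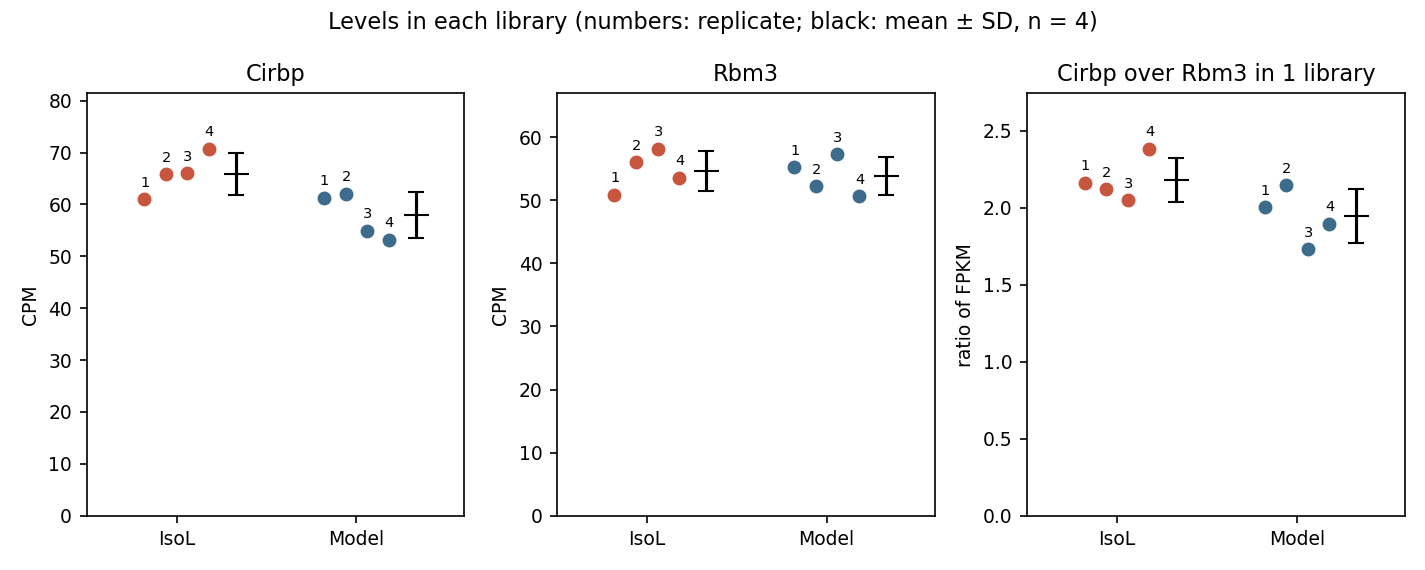
Cirbp and Rbm3 levels (CPM) and the Cirbp over Rbm3 ratio of FPKM in each library, IsoL left and Model right, with the replicate number beside each point and the group mean ± SD (n = 4) in black. Cirbp in IsoL 2, 3 and 4 lies between 65.9 and 70.8 CPM, above the 53.2 to 62.1 CPM of the Model libraries, while Rbm3 interleaves between the groups.

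The spread between libraries of a group was small for both genes. The coefficient of variation of Cirbp was 6.08% in IsoL and 7.70% in Model libraries, and that of Rbm3 5.76% in IsoL and 5.56% in Model libraries. Counting error alone gives 2.54 to 3.57% for Cirbp and 2.92 to 3.66% for Rbm3 in a single library, and it covers counting only, since reads were amplified by PCR without molecular identifiers. The deepest library of each group also had that group's highest Cirbp level, IsoL 4 with 21620466 counts and 70.8 CPM, and Model 2 with 15886850 counts and 62.1 CPM. With every library thinned to the smallest total, 14262836 counts, Cirbp was at 61.2, 66.9, 66.3 and 69.6 CPM in IsoL 1 to 4 and at 61.8, 61.6, 54.99 and 53.3 CPM in Model 1 to 4, and its log2 fold change was again 0.19 (edgeR adjusted p = 0.236). Over the same thinned counts Rbm3 had a log2 fold change of 0.05 (edgeR adjusted p = 0.789).

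**Figure D2:**
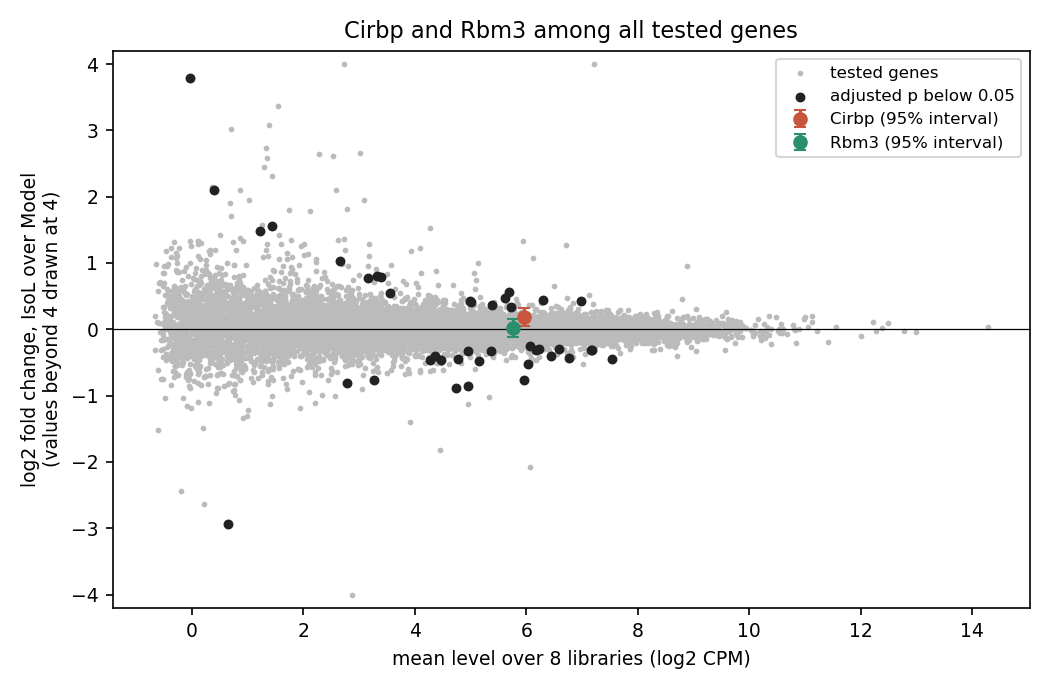
Log2 fold change of IsoL over Model against the mean level (log2 CPM) for the 14536 tested genes, with the 40 that passed in black and Cirbp and Rbm3 in colour with their 95% intervals. Cirbp at 0.19 and Rbm3 at 0.02 lie within the band of genes at their level that did not pass.

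Per kilobase of the table's gene length, Cirbp was the more abundant of the pair in all 8 libraries. On the FPKM scale, Cirbp was at 25.3 ± 1.69 in IsoL and 22.2 ± 1.65 in Model libraries, and Rbm3 at 11.6 ± 0.693 in IsoL and 11.4 ± 0.657 in Model libraries. Among the tested genes of a library this placed Cirbp at percentiles of 86.8 to 89.2 of FPKM in IsoL and 84.0 to 86.6 in Model, and Rbm3 at percentiles of 68.9 to 72.6 in IsoL and 68.9 to 72.3 in Model. The Cirbp over Rbm3 ratio of FPKM was 2.16, 2.12, 2.05 and 2.38 in IsoL 1 to 4, against 2.003, 2.15, 1.73 and 1.90 in Model 1 to 4. The ratio was 2.18 ± 0.145 in IsoL and 1.94 ± 0.176 in Model libraries, and the groups overlapped through Model 2. It was not tested, because the pair was given as a set.

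The size of that ratio rests on the length used. The table's lengths, 2604 bases for Cirbp and 4698 for Rbm3, exceed those of every coding transcript in GENCODE M21 (GRCm38), which are 423 to 1321 bases for the 2 of Cirbp and 969 to 2792 for the 6 of Rbm3. GENCODE lists 7 transcripts for Cirbp, 4 of them with a retained intron and 1 marked for nonsense-mediated decay, and 11 for Rbm3, 2 with a retained intron and 2 for decay. By the median coding length the ratio was 1.57 to 1.82 in IsoL and 1.32 to 1.64 in Model libraries, and by the longest coding transcript 2.40 to 2.79 in IsoL and 2.03 to 2.51 in Model libraries. Counts per gene do not part these transcripts, although temperature is known to shift the splicing of both genes. Rbm3 has an annotated processed pseudogene, Rbm3-ps, of 465 bases, and reads could be shared wherever the sequences match, so its level is uncertain to that extent. Within 5000 bases of either gene the table had 1 other gene and no overlap: Fam174c, on the strand of Cirbp, started 158 bases beyond its end, with 139 counts summed over IsoL and 152 over Model libraries, few beside the 4717 of Cirbp in IsoL and 3443 in Model libraries.

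The profiles of the 2 genes over the libraries were not alike. Each gene's logCPM was centred on its mean over the 8 libraries, and profiles were compared by their root mean square difference on the log2 scale. Cirbp and Rbm3 differed by 0.13, as much as the variation of Cirbp around its own mean (0.13) and more than that of Rbm3 (0.07). Among the 10251 other genes with a mean of at least 10 CPM, 1701 were nearer to Cirbp than Rbm3 was, and 5658 were nearer to Rbm3 than Cirbp was. The 5 nearest to Cirbp were F11r (0.050), Rnf139 (0.0511), Ndc1 (0.0512), Dnajc27 (0.0542) and Pxmp4 (0.0602), all with a positive log2 fold change, 0.13 to 0.23, and none of them called in edgeR. The 5 nearest to Rbm3 were Gigyf2 (0.0296), Abca5 (0.0326), Tada2b (0.0347), Ddx18 (0.0380) and Usp36 (0.0381), with log2 fold changes between -0.02 and 0.01. These distances describe 8 libraries and carry no test.

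**Figure D3:**
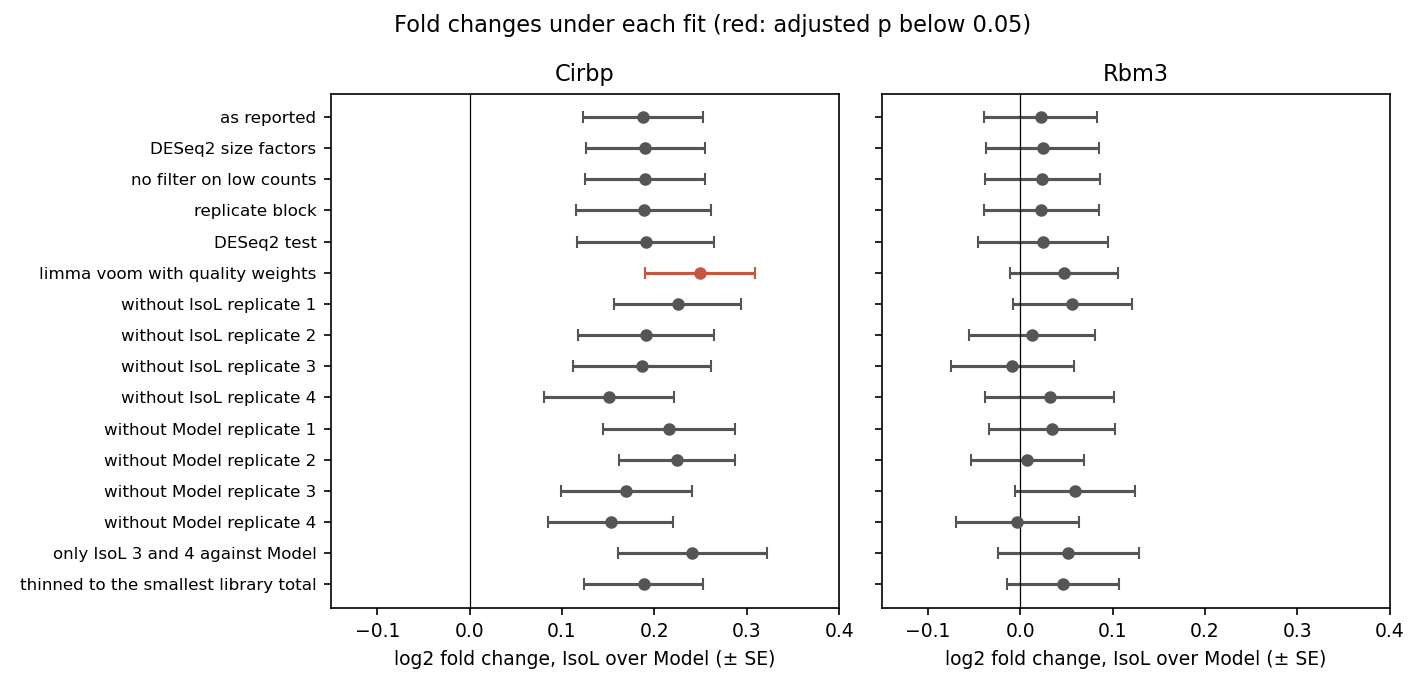
Log2 fold change of IsoL over Model (± SE) for Cirbp, left, and Rbm3, right, under the fit reported and each alternative fit. Cirbp stays between 0.15 and 0.25 and passes in 1 fit, limma voom with quality weights, while Rbm3 lies within 0.06 of 0 throughout.

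Leaving aside the libraries that stood apart did not bring either gene past the threshold. With IsoL 3 and 4 only against the 4 Model libraries, the log2 fold change of Cirbp was 0.24 ± 0.08 (SE; edgeR adjusted p = 0.403) and that of Rbm3 was 0.05 ± 0.08 (SE; edgeR adjusted p = 0.894). In the fit of all libraries Cirbp had 0.19 ± 0.07 (SE). A fit with fewer libraries has less power, so no conclusion is drawn from not passing in it. Without Model 2, Cirbp had 0.22 (edgeR adjusted p = 0.102). Cell type and region markers differed beside these values. The 5 astrocyte markers summed to 1441 to 1592 CPM in IsoL and 1342 to 1416 CPM in Model libraries, and 5 of 5 had a positive log2 fold change (median 0.22). So did the 5 oligodendrocyte markers (median 0.13), the 5 of microglia (median 0.10) and the 3 of oligodendrocyte precursors (median 0.04). Of these glial markers 0 passed in edgeR, beside 0.275% of all tested genes. An unadjusted edgeR p under 0.05 was found for 13.2% of all tested genes. Among these markers it was found for 1 of astrocytes, 2 of oligodendrocytes, 2 of microglia and 0 of precursors. The 10 hypothalamic markers summed to 78.4 to 161 CPM in IsoL and 196 to 233 CPM in Model libraries, 8 of 10 below Model and 1, Pmch, called lower, beside 0.158% of all tested genes, with none at 0. Of the 10, 6 had an unadjusted edgeR p under 0.05, beside 13.2% of all tested genes. The groups did not overlap for 6 of the 10, beside 8.48%. The 5 neuronal markers summed to 3658 to 3944 CPM in IsoL and 3661 to 4222 CPM in Model libraries. Of these, 4 were below Model, 0 passed in edgeR and 2 had an unadjusted p under 0.05, beside 13.2% of all tested genes. The 6 of cortex and hippocampus summed to 146 to 283 CPM in IsoL and 160 to 198 CPM in Model libraries, highest in IsoL 1 and 2. Of the 5 thalamic markers 3 were below Model, and of the 5 striatal markers 4. In either list 0 were called in edgeR, beside 0.275% of all tested genes. An unadjusted edgeR p under 0.05 was found for 1 thalamic and 2 striatal markers, beside 13.2% of all tested genes. The cortex and hippocampus markers had 0 such genes. In bulk tissue a different share of cells and a different amount of RNA per cell cannot be told apart, and the part of these markers in the Cirbp values was not tested.

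Among closely related RNA-binding proteins no gene passed in edgeR. Of 16 genes for glycine-rich or RRM-bearing relatives, 0 passed in edgeR and 2 had an unadjusted p under 0.05, near the 13.2% of all tested genes. Hnrnpdl alone passed in DESeq2, which called 2.14% of all tested genes, and in limma voom, which called 1.64%. The median log2 fold change was 0.03, against -0.00146 over all tested genes. Hnrnpdl, an hnRNP that regulates splicing, was at 221 ± 5.40 CPM in IsoL and 196 ± 2.14 CPM in Model libraries (log2 0.17, edgeR adjusted p = 0.0990), with no overlap between groups, a pattern shown by 8.48% of all tested genes.

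The cold shock domain, a fold shared with bacterial cold shock proteins, gives its name to a separate family. Of its 7 genes 6 were tested, of which 0 passed in edgeR and 3 had an unadjusted p under 0.05, beside 13.2% of all tested genes, with a median log2 fold change of -0.05. DESeq2 called 0 of them and limma voom 1, Lin28b, beside 2.14% and 1.64% of all tested genes by those tools. Lin28b, which blocks maturation of let-7 microRNAs, was at 25.3 ± 0.685 CPM in IsoL and 29.7 ± 0.624 CPM in Model libraries (log2 -0.23, edgeR adjusted p = 0.135). Carhsp1, a calcium-regulated member that binds mRNA, was at 71.1 ± 2.80 CPM in IsoL and 65.3 ± 2.50 CPM in Model libraries (log2 0.12, edgeR adjusted p = 0.328).

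Genes tied to the action of the pair had differences that did not pass in edgeR. Rtn3, the reticulon through which RBM3 acts in cooled mouse brain, was at 1439 ± 6.88 CPM in IsoL and 1473 ± 75.5 CPM in Model libraries (log2 -0.03, edgeR adjusted p = 0.796). Ntrk2, the gene of the TrkB receptor, was at 911 ± 37.8 CPM in IsoL and 836 ± 59.6 CPM in Model libraries (log2 0.12, edgeR adjusted p = 0.357). Clock, the clock activator whose mRNA CIRBP binds, was at 152 ± 2.45 CPM in IsoL and 154 ± 5.90 CPM in Model libraries (log2 -0.02, edgeR adjusted p = 0.898). In the whole list of 17 such genes, mostly of the circadian clock, 0 passed in edgeR and 4 had an unadjusted p under 0.05, beside 13.2% of all tested genes. DESeq2 called 1 of them higher in IsoL, the clock repressor gene Nr1d1 (adjusted p = 0.0346), named here after its value was seen, beside 1.11% of all tested genes called higher. Limma voom called 1 lower, Cry1 (adjusted p = 0.0408), beside 0.874% called lower. Of the 17, 12 were below Model, with a median log2 fold change of -0.04. The smallest p values were those of Cry1, at 19.3 ± 1.14 CPM in IsoL and 23.99 ± 1.55 CPM in Model libraries (edgeR adjusted p = 0.116), and Per2, at 24.4 ± 0.537 CPM in IsoL and 29.0 ± 1.75 CPM in Model libraries (edgeR adjusted p = 0.138), both repressors of the clock.

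CDC-like kinases sense temperature in the body's range and phosphorylate the SR splicing factors. Of 20 such kinases and splicing factors, 0 passed in edgeR and 3 had an unadjusted p under 0.05, near the 13.2% of all tested genes, and 14 were below Model (median log2 fold change -0.04). DESeq2 called 1, Tra2b, and limma voom 0, beside 2.14% and 1.64% of all tested genes by those tools. Tra2b, an SR-like splicing factor, was at 93.5 ± 3.15 CPM in IsoL and 107 ± 6.74 CPM in Model libraries (log2 -0.20, edgeR adjusted p = 0.126). Srsf3, a small SR protein, was at 162 ± 6.05 CPM in IsoL and 178 ± 8.56 CPM in Model libraries (log2 -0.14, edgeR adjusted p = 0.259).

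Heat-induced chaperones, on the other side of the temperature response, held 2 of the calls. Of 23 heat-induced chaperone and heat shock factor genes, 2 fell in IsoL, 0 rose and 21 did not pass in edgeR, beside 0.158% of all tested genes called lower. The list's median log2 fold change was -0.15, against -0.00146 over all tested genes, and 19 of 23 were below Model. Of the 23, 11 had an unadjusted edgeR p under 0.05, beside 13.2% of all tested genes. The groups did not overlap for 10 of the 23, beside 8.48%. Dnajb1, an HSP70 co-chaperone, was at 51.1, 50.6, 55.3 and 58.2 CPM in IsoL 1 to 4, against 76.7, 77.0, 76.3 and 80.7 CPM in Model 1 to 4. The groups lie far apart, and the difference, -0.53 ± 0.06 as a log2 fold change with its SE (edgeR adjusted p = 0.00359), passed in 8 of 8 fits with a library left out. The list held 6 lower calls by DESeq2, beside 1.03% of all tested genes called lower, and 6 by limma voom, beside 0.874%. Hspa1a, an inducible HSP70, was at 0.184, 0.290, 0.633 and 0.321 CPM in IsoL 1 to 4, against 1.68, 1.44, 4.03 and 3.87 CPM in Model 1 to 4 (log2 -2.93, SE 0.45, edgeR adjusted p = 0.0344). Its counts were 3, 5, 10 and 7 in IsoL 1 to 4, against 24, 23, 58 and 57 in Model 1 to 4. With IsoL 1 at the 3-count level and the other IsoL libraries not far above it, Hspa1a has a log2 fold change of uncertain size. It lost its call without IsoL 1, IsoL 2, IsoL 4 or Model 4 (edgeR adjusted p 0.0839 to 0.114), and it may share reads with its near-identical neighbour Hspa1b, at 3.90 ± 1.35 CPM in IsoL and 7.85 ± 1.07 CPM in Model libraries (edgeR adjusted p = 0.0740). The difference between these changes and those of Cirbp and Rbm3 was not tested.

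**Figure D4:**
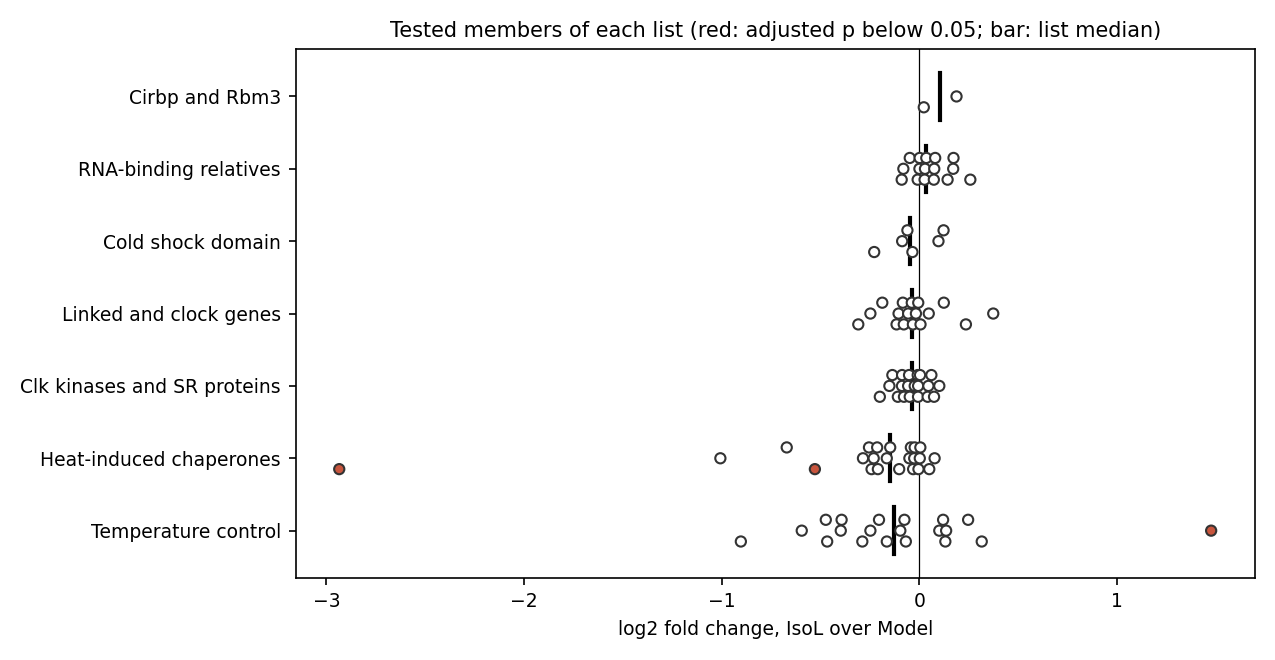
Log2 fold change of IsoL over Model for every tested gene of each list, with red points for adjusted p below 0.05 (edgeR) and a bar at the list median. The 2 called chaperones lie at -0.53 and -2.93 and the 1 called temperature control gene, Trpv4, at 1.48, while Cirbp and Rbm3 lie at 0.19 and 0.02.

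Among 23 genes that sense temperature or act in its hypothalamic control, 20 were tested, 1 rose, 0 fell and 19 did not pass (edgeR; median log2 fold change -0.13), beside 0.117% of all tested genes called higher and 0.158% called lower. An unadjusted edgeR p under 0.05 was found for 7 of the 20, beside 13.2% of all tested genes. The gene that rose was Trpv4, a cation channel opened by warmth and by swelling, at 4.36, 3.65, 2.21 and 2.57 CPM in IsoL 1 to 4, against 0.769, 1.38, 1.32 and 1.09 CPM in Model 1 to 4 (log2 1.48, SE 0.28, edgeR adjusted p = 0.0478). Its higher IsoL values were in IsoL 1 and 2, the libraries with most ependyma and choroid plexus marker counts. Of IsoL 3 and 4, IsoL 3 had the higher marker sum, 83.2 against 32.7 CPM, and the lower Trpv4 level. The part of these markers in the rise of Trpv4 was not tested. Trpv4 passed in 1 of 8 fits with a library left out, the one without Model 2. With IsoL 3 and 4 only its log2 fold change was 1.06 (edgeR adjusted p = 0.328). Of the 20, DESeq2 called 1 higher, Trpv4, and 4 lower in IsoL, beside 1.11% and 1.03% of all tested genes. Limma voom called 1 higher, Trpv4, and 1 lower, beside 0.764% and 0.874%.

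The gene ontology terms attached in the deposited table offer a wider list, chosen after the data were seen. The cold response terms hold 54 genes, Cirbp and Rbm3 among them, of which 48 were tested. Of these 15 had an unadjusted edgeR p under 0.05, beside 13.2% of all tested genes. In edgeR 0 rose and 2 fell, beside 0.158% of all tested genes, and 24 were above and 24 below Model, with a median log2 fold change of -0.00257. The 2 were Fos, an activity-induced transcription factor gene, at 22.1 ± 1.62 CPM in IsoL and 39.7 ± 6.07 CPM in Model libraries (edgeR adjusted p = 0.00486), and Pmch, the precursor gene of melanin-concentrating hormone, at 18.7 ± 3.73 CPM in IsoL and 34.7 ± 5.19 CPM in Model libraries (edgeR adjusted p = 0.0471), whose call held in 1 of 8 fits with a library left out, the one without IsoL 3. With IsoL 3 and 4 only, Pmch did not pass (log2 -0.70, edgeR adjusted p = 0.0924). Pmch is itself among the 10 hypothalamic markers, which summed to 78.4 to 161 CPM in IsoL and 196 to 233 CPM in Model libraries, with both Pmch and the sum lowest in IsoL 1, and their part in its fall was not tested. The heat response terms hold 108 genes, of which 89 were tested, 1 rose and 2 fell, namely Trpv4, Dnajb1 and Hspa1a, beside 0.117% of all tested genes called higher and 0.158% called lower, with a median of -0.00821. An unadjusted edgeR p under 0.05 was found for 18 of the 89, beside 13.2% of all tested genes.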

How the data were processed

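The 4 IsoL and 4 Model libraries were made from poly-A selected brain RNA. Per the submitters' processing notes the tools were fastp 0.22.0, HISAT2 2.1.0 and HTSeq 0.9.1; build, annotation release and strand setting are not given in those sources. The deposited read counts per gene are unnormalized, per the file headers, and were used for all tests. The deposited FPKM values, per the file headers, equal counts per kilobase of the table's gene length, the other deposited unit, and of the summed counts of the library for both genes, and served for levels per length.

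Genes were filtered with filterByExpr (14536 kept of 21959), scaled by TMM and tested by the quasi-likelihood F-test of edgeR 4.0.16 with robust dispersion (R 4.3.3), adjusted by Benjamini-Hochberg over all tested genes at 0.05. Each SE was obtained from the log2 fold change and F, and 95% intervals from t with the fit's degrees of freedom. LogCPM used a prior count of 2. The script was tested on simulated data. No 2 libraries of a group were duplicates (chi-square per degree of freedom 2.37 to 11.0). Alternatives were DESeq2 size factors, no filter, a replicate block, DESeq2 1.42.0, limma 3.58.1 voom with quality weights, an exact permutation test, other thresholds and each library left out. A fit of IsoL 3 and 4 against Model and thinning to equal depth were chosen after seeing the data.

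The members and gene lists were chosen with earlier results of these data known, so no list is independent evidence. Named were, from each list, the genes past the threshold, or the 2 of lowest p where there were none, plus Hspa1a, Hspa1b, Dnajb1, Rtn3, Ntrk2 and Clock, and the 5 genes most like each member. A gene that this rule names is not reported here. The promoter sequence is from RefSeq (GRCm38.p6). Figures were drawn with matplotlib 3.10.9.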

Additional observations from a re-analysis of the deposited data

Results flagged for a closer look

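Among 42 groups of 4 libraries checked, 3 held a library whose gap to its nearest neighbour was large for the group's range; chance gives about 1 in 20 groups, and neither Cirbp nor Rbm3 was among them. Model 3 was at 26.3 CPM for Cry1, above the other Model libraries at 23.0 to 23.5 CPM. IsoL 1 was at 23.6 CPM for Per2, below the other IsoL libraries at 24.6 to 24.8 CPM, a gap small in size. Model 4 was at 80.7 CPM for Dnajb1, above the other Model libraries at 76.3 to 77.0 CPM and farther from the IsoL libraries than they were.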

How the results depend on the processing

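Cirbp was higher in IsoL under all 16 alternatives run, with log2 fold changes of 0.15 to 0.25, and passed in 1 of them, limma voom with quality weights (0.25, adjusted p = 0.0451; adjusted p 0.102 to 0.447 in the other fits). With a library left out its log2 fold change was 0.15 to 0.23. Rbm3 passed in none, and with a library left out was at -0.00846 to 0.0591, the sign turning without IsoL 3 and without Model 4 (-0.00308). The count of changed genes, 40, was 74 with no filter on low counts, 311 in DESeq2, 238 in limma voom, 138 at a threshold of 0.1, 5 at 0.01 and 6 to 146 with a library left out, lowest without IsoL 2 or Model 4 and highest without Model 2; leaving out IsoL 1 gave 8, IsoL 4 gave 9, Model 1 gave 13, IsoL 3 gave 16 and Model 3 gave 21. The cause was not tested, but a library fewer also lowers the residual degrees of freedom. With the replicate block the count was 17, and Cirbp had a log2 fold change of 0.19 (edgeR adjusted p = 0.314) and Rbm3 of 0.02 (adjusted p = 0.914); Pmch (adjusted p = 0.155) and Trpv4 (adjusted p = 0.0775) did not pass under it. Same-numbered libraries deviated from their group means with correlations across genes of 0.0199 to 0.0696, and not every library correlated best with its own number, so the numbers were not taken as pairs. Of the 6 fixed lists tested, no median changed sign in any of the 15 refits. Called heat-induced chaperones, 2 as reported, numbered 4 with no filter, 6 in DESeq2, 6 in limma voom and 1 to 4 with a library left out. Called temperature control genes, 1 as reported, numbered 0 with DESeq2 size factors, the replicate block or IsoL 3 and 4 only, 2 with no filter or in limma voom, 5 in DESeq2 and 0 to 2 with a library left out. At 746 to 1544 reads per library, counting error alone is 2.54 to 3.66% for the 2 genes, and the spread between libraries includes it.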
